A study of Mus musculus with 7 samples.

Results

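Bone morphogenetic proteins (BMPs) are secreted growth factors. The 10 genes described here are the BMP ligands Bmp2, Bmp4 and Bmp7, the secreted antagonists Nog and Grem1, the response genes Id1, Id2 and Id3, and the inhibitory Smads Smad6 and Smad7. They were selected by name as 1 pathway, with results of these arrays, including intensity ratios given here, already known. All probe sets annotated to exactly 1 of these symbols were kept. They are 10 of 18336 genes named by single-gene probe sets in the series, and had 28 of 45778 single-gene probe sets in the series, 15 in the table of the Sertoli and TM4 arrays and 13 in the table of the testis arrays. All 10 genes had a probe set in both tables.

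RNA from mouse was hybridised to 7 Affymetrix arrays, each of which was a group of its own. Whole testis was taken at 4 weeks from a wild-type and an ERM knockout mouse sample. Primary Sertoli cells, the somatic cells that support the germ cells in the seminiferous tubule, came from wild type at 4 weeks, ERM knockout at 4 weeks and ERM knockout at 10 weeks. TM4, a line derived from mouse Sertoli cells, was measured without and with transfection of ERM, an ETS family transcription factor encoded by Etv5. The strain, the deleted part of the gene, the expression construct, the number of animals pooled and the culture of the primary cells were not stated by the labels or tables used here.

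BMP dimers bind a pair of receptor kinases, which phosphorylate Smad1, Smad5 and Smad9, and these enter the nucleus with Smad4. Their direct targets include the Id genes, whose products hold basic helix-loop-helix factors away from DNA, and Smad6 and Smad7, which feed back on the receptors. Noggin and Gremlin act earlier, by binding BMPs outside the cell. In the testis, BMP4 has been studied as a signal from Sertoli cells to spermatogonia.

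The start regions of Id2, Id3 and Bmp4, members with a RefSeq start region that were past 2-fold between wild-type Sertoli cells and TM4, are printed to show which Smad and ETS letters lie there. They run from 250 bases before to 50 bases after the annotated start and come from RefSeq's GRCm38.p6 table of start regions, which held 5 of the 10 members. Capitals mark GGCGCC (a palindrome bound by Smad1 and Smad5), GTCTG or CAGAC on either strand (a Smad4 element), and CCGGAA or TTCCGG (an ETS core). Id2 lies on the minus strand at chr12:25096043-25096342, Id3 on the plus strand at chr4:136143572-136143871 and Bmp4 on the minus strand at chr14:46390620-46390919.
Id2: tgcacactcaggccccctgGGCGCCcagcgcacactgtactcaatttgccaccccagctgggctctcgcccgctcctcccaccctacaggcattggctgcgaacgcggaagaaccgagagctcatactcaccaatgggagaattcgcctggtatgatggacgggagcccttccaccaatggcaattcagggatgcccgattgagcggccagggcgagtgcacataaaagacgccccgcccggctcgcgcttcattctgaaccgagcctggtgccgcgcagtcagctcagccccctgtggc
Id3: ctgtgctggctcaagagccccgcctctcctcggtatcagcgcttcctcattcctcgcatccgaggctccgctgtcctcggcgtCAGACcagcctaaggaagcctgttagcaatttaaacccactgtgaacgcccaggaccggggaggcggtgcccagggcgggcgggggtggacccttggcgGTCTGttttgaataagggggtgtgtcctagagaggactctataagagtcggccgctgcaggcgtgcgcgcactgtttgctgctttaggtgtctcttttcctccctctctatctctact
Bmp4: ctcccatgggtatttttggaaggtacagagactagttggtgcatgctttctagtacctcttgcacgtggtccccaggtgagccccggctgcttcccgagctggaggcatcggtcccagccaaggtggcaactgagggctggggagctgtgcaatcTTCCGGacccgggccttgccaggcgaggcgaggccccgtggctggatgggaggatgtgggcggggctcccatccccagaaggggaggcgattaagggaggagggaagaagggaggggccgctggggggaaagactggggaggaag
The Id2 window held the GGCGCC palindrome, the Id3 window 2 Smad4 elements and the Bmp4 window 1 ETS core. Of the windows not printed, that of Grem1 held 1 palindrome and 2 Smad4 elements, and that of Smad6 held no match. Of 32851 mouse start regions of the same length, 11.9% held GGCGCC, 49.6% the Smad4 element and 14.9% the ETS core on either strand. These matches describe letters in a short window and do not show binding.

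Intensities were scaled so that every array had the same trimmed mean of 500, and readings under 100 were treated as at a floor. Where a single reading of a pair was under the floor its ratio is given as a bound, and where both were, no ratio was formed. With 1 array per group there was no replicate, no test across samples and no error from animals or cultures. The error available was the spread of probe sets of 1 gene within an array pair, a robust standard deviation of 0.22 in testis, 0.19 for 4-week Sertoli cells and 0.15 in TM4, in log2 units. It was 0.22 between the knockout ages and 0.53 between wild-type Sertoli cells and TM4. This spread was taken from probe sets with both readings at or above the floor and the brighter at 500 or above. It therefore does not cover members with dimmer readings. Ratios of 2-fold or more are counted and read beside the share of all features past the same fold.

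The labels were compared with marker genes before the members were read. In the Sertoli and TM4 table, 13 of 15 member probe sets reached the floor on at least 1 array and 8 on all 5. For testis, both arrays reached it on 11 of 13. Etv5 (1428142_at) read 710, 910 and 995 on the wild-type, 4-week and 10-week knockout Sertoli arrays, so it was not lower on those labelled knockout. The testis arrays held no probe set annotated to Etv5 alone, so the testis knockout label was not checked with it. Sertoli markers summed to 62395, 74204 and 67600 on these arrays and to 3388 and 3271 in TM4, where Wt1 and the brightest probe set of Nr5a1 did not reach 100. Of 14 tested, 12 were at least 2-fold higher in wild-type Sertoli cells than in untransfected TM4 and 1 was lower. The lower marker was Amh (322 against 651), and Fshr was level (139 on both arrays). The brightest Sox9 probe set read 95.1 in untransfected TM4, while another, 1424950_at, read 2869. The 4-week knockout array carried high 18S ribosomal RNA control signals (4551, 3037 and 1966 for the 5', middle and 3' probe sets), against 236 to 666 on the other 4 arrays of its table.

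In whole testis at 4 weeks, Nog was the 1 member past 2-fold. Noggin sequesters BMP ligands, and its probe set 97727_at read 747 in wild type against 322 in the sample labelled ERM knockout. The knockout reading was 2.32-fold lower (log2 ratio -1.21), and 0.312% of all tested probe sets lay at least as far down. Of 10 members tested 1 was lower by 2-fold and none higher, beside 0.852% of 7515 genes lower, 0.532% higher and 1.38% in either direction. The median log2 ratio of the members was 0.051. Since the members were proposed with such results in view, Nog's ratio is a description. In a bulk sample, fewer cells of a type and less RNA per cell cannot be told apart.

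No response gene or inhibitory Smad was past 2-fold in the testis. Smad7, which blocks BMP and TGF-beta receptors, read 123 in wild type and 229 in knockout on 92216_at, a log2 ratio of 0.90. Id2 read 232 and 427 on 93013_at, a log2 ratio of 0.88, whereas Id3 read 574 and 418 on 92614_at, a log2 ratio of -0.46. Of tested probe sets 1.01% lay as far up as Smad7 and 1.16% as far up as Id2. Id1 (707 and 745) and Smad6 (767 and 814) differed by 1.05-fold and 1.06-fold, less than the spread of probe sets. A floor of 0.4 in place of 0.2 of the trimmed mean put the Smad7 ratio at 0.20.

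Among the ligands and the remaining antagonist no probe set was past 2-fold in testis. Bmp4 read 777 and 662 on 93455_s_at and 127 and 170 on 93456_r_at, so its probe sets pointed opposite ways. Bmp7 read 605 and 617, and Grem1 read 318 and 334. Bmp2 was measured only on 161901_r_at (172 and 156). Its probe set 102559_at read 87.2 in wild type and 1.05 in knockout, both below the floor, so no ratio was formed.

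**Figure D1:**
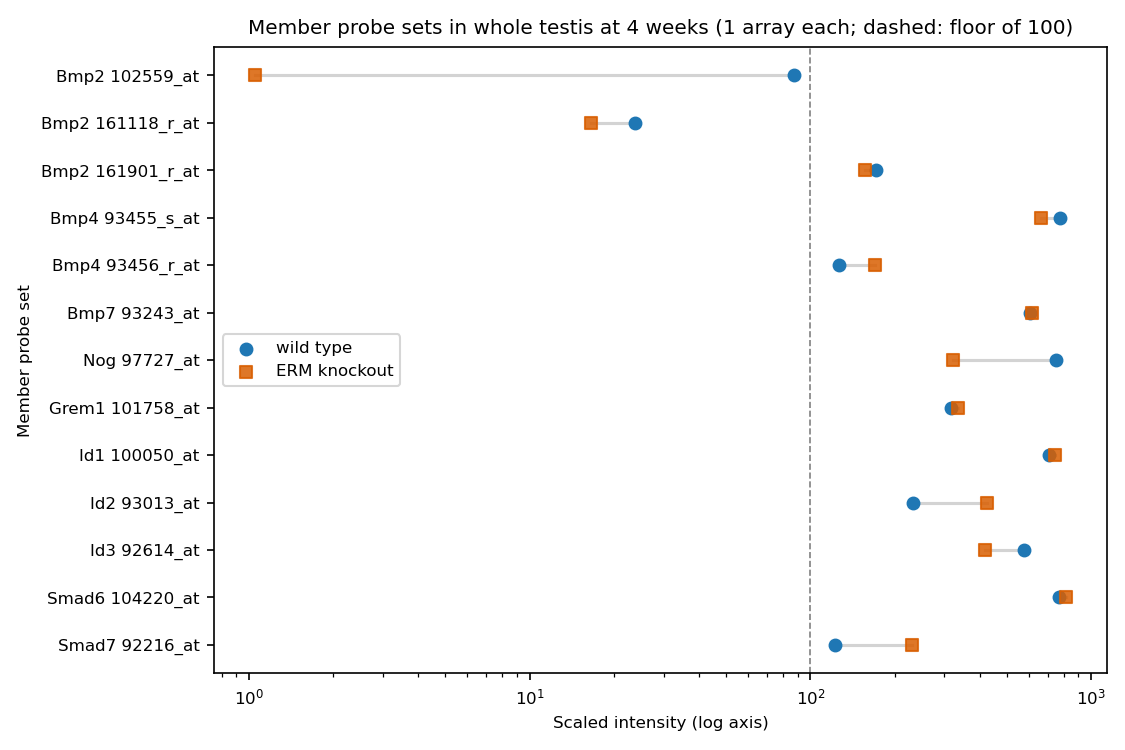
Scaled intensity (log axis) of the 13 member probe sets in whole testis at 4 weeks, with 1 wild-type array (circles) and 1 ERM knockout array (squares) and the floor of 100 as a dashed line. Nog is lower on the knockout array (322 against 747), Id2 and Smad7 are higher, and Id1, Smad6, Bmp7 and Grem1 lie close together.

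No other gene of the BMP lists was past 2-fold in testis. Of 60 genes in 5 lists (ligands, receptors, antagonists, Smads and response genes), 40 had a probe set and 37 were tested, with 17 above 0, 20 below 0 and a median log2 ratio of -0.029. The median over all genes was -0.014. All 5 tested genes of the Smad list lay below 0 (median -0.52). Of these, Smad3 (-0.18) and Smad4 (-0.05) differed by less than the spread of probe sets and read near the floor. Smad1, a BMP-activated Smad, was at -0.52, and Smad5, its close relative, was at least 1.77-fold lower with the knockout reading below the floor. Of 8 TGF-beta response genes tested 1 was higher, Ltbp1, which encodes a latent TGF-beta binding protein (115 in wild type, 238 in knockout, 2.08-fold), and none lower. Marker lists of cell types differed between the same arrays. Summed fibroblast markers (7 of 7 on the array) were 4017 in wild type and 6223 in knockout. Of 6 tested 2 were past 2-fold, Dcn (2.04-fold) and Pdgfra (2.26-fold, -0.05 on the log2 scale on another probe set). Of the 6, 5 lay above 0, and Thy1 lay below at a log2 ratio of -0.62. Summed macrophage markers (13 of 13) were 3858 and 5238, with Aif1 alone at 1065 and 1963. Of 12 tested none was past 2-fold, with 9 above 0 and 3 below. Summed spermatogonial and early germ cell markers were 8382 in wild type and 6478 in knockout (12 of 15 on the array), while summed Sertoli markers were 15622 and 19608 (12 of 15). Of the 12 Sertoli markers tested none was past 2-fold, with 8 above 0 and 4 below. In the early germ cell list Dazl was 3.39-fold lower and Stra8 at least 2.86-fold lower, while the other 8 of 10 tested were within 2-fold. Of the 10, 7 were below 0 and 3 above, with a median log2 ratio of -0.20. Gfra1 and Sall4 were below the floor on both arrays. The part of these cell types in the Nog and Smad values was not tested.

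In primary Sertoli cells at 4 weeks, the ligand Bmp7 and the response gene Id3 were lower on the array labelled ERM knockout. Bmp7 read 921 in wild type, 304 in 4-week knockout and 570 in 10-week knockout on 1432410_a_at. The 4-week ratio was 3.03-fold lower (log2 ratio -1.60), with 0.789% of tested probe sets at least as far down. Its probe set 1435479_at read 206, 193 and 236, a 4-week log2 ratio of -0.095, and 1418910_at was below the floor on all 5 arrays. The Bmp7 difference therefore rested on 1 of 3 probe sets.

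Id3, an inhibitor of basic helix-loop-helix factors, read 216 in wild type, 86.4 in 4-week knockout and 248 in 10-week knockout on 1416630_at. It was at least 2.16-fold lower at 4 weeks, and at least 2.48-fold higher at 10 weeks than at 4 weeks. The 4-week knockout array gave the lowest Id3 reading of the 5 arrays. Between the 10-week knockout and wild-type arrays Id3 had a log2 ratio of 0.20, within 2-fold. Raising the floor to 0.4 of the trimmed mean put the 4-week ratio at -0.11.

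Of 8 members tested at 4 weeks, 2 were at least 2-fold lower and none higher, beside 3.18% of 15860 genes lower, 0.681% higher and 3.86% in either direction. Each of these alternatives left 1 member past 2-fold: averaging probe sets or leaving out those whose ID carries a suffix letter (Id3 past 2-fold), and the floor at 0.4 (Bmp7 past 2-fold). The median log2 ratio of the tested members was -0.34, with 7 below 0 and 1 above, beside a median of -0.016 over all genes.

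The other members differed less between the 4-week arrays. Bmp4 read 130 in wild type and 74.8 in knockout, at least 1.30-fold lower. Id1 read 547 and 444 (log2 ratio -0.30). Id2 was bright in Sertoli cells, with 2016 and 1872 on 1435176_a_at and 1113 and 889 on 1422537_a_at, log2 ratios of -0.11 and -0.32. Grem1 was level at 360 and 359. Nog was higher in knockout at 241 against 165, a log2 ratio of 0.55, within 2-fold.

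Smad7 gave opposite answers on its 2 probe sets at 4 weeks. On 1443771_x_at, a probe set prone to cross-hybridisation for which the annotation lists no accession, it read 824 in wild type and 464 in knockout (log2 ratio -0.83). On 1423389_at it read 225 and 284 (log2 ratio 0.34). Bmp2 and Smad6 were below the floor on all 3 Sertoli arrays and gave no ratio.

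**Figure D2:**
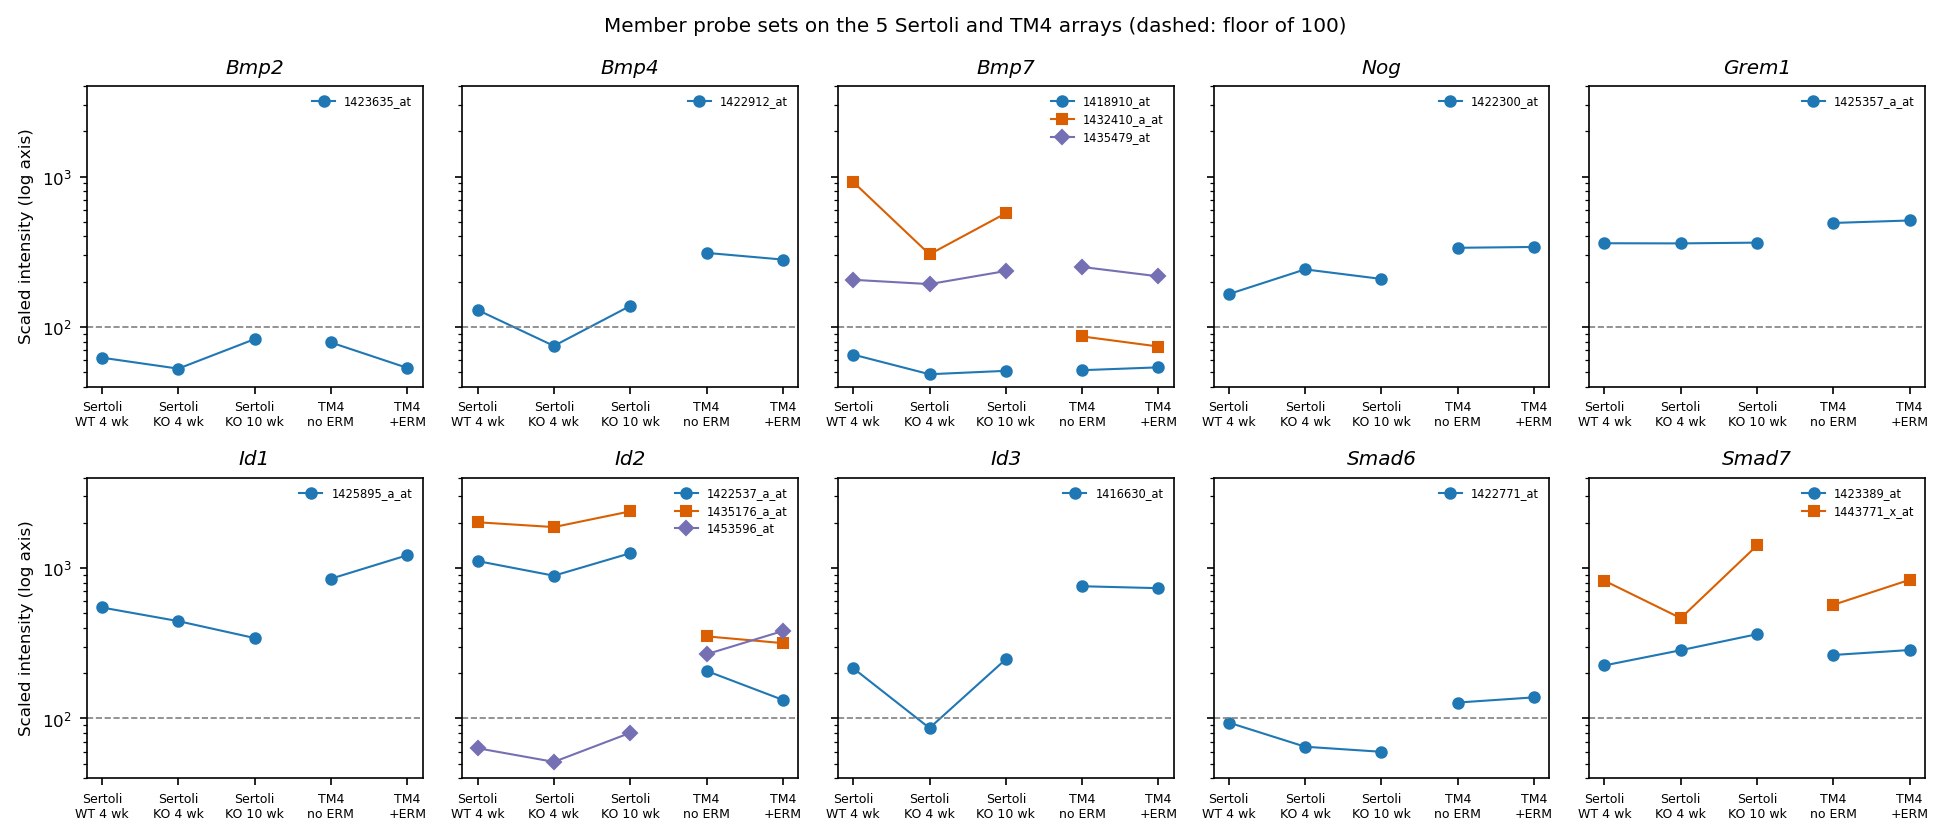
Scaled intensity (log axis) of the 15 member probe sets on the 3 Sertoli arrays (WT, wild type; KO, ERM knockout) and the 2 TM4 arrays, 1 array each, with a marker per probe set and the floor of 100 dashed. Id3 and Bmp7 (1432410_a_at) dip on the 4-week knockout array, Id2 is high in Sertoli cells and low in TM4 on 2 of 3 probe sets, and Id3 is high in TM4.

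Between the knockout ages, Smad7 and Id3 were higher on the 10-week than on the 4-week Sertoli array. Smad7 on 1443771_x_at read 1414 at 10 weeks against 464 at 4 weeks, 3.04-fold higher (log2 ratio 1.61), and 1423389_at read 363 against 284 (log2 ratio 0.35). Of 8 members tested between the knockout ages 2 were at least 2-fold higher, Smad7 and Id3, and none lower. Over all genes 4.19% were at least 2-fold higher, 3.51% lower and 7.7% either. The count was 1 with the floor at 0.4 (Smad7), with averaged probe sets (Id3) and without probe sets of suffixed ID (Id3).

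Bmp7 was 1.88-fold higher at 10 than at 4 weeks on 1432410_a_at, and Bmp4 at least 1.38-fold higher (138 against below the floor). Id2 was higher by log2 ratios of 0.35 and 0.50 on its 2 bright probe sets. Id1 went the other way, at 343 against 444 (log2 ratio -0.37). Of Id1, Id2 and Id3 it was the 1 whose Sertoli reading was lowest at 10 weeks.

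Leaving out the 4-week knockout array, the 10-week knockout was set against wild type at 4 weeks, where age and genotype cannot be told apart. No member was past 2-fold among 8 tested, beside 1.62% of all genes higher, 4.22% lower and 5.85% either. Smad7 was higher on both probe sets (log2 ratios 0.78 and 0.69). Id1 and Bmp7 were lower (log2 ratios -0.67 and -0.69), with 0.20 for Bmp7 on 1435479_at. These comparisons share arrays with the 4-week comparison, so their values are not independent of it.

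Cell type markers differed between the same Sertoli arrays. Summed macrophage markers (13 of 13 on the array) were 13555 in wild type, 5294 in 4-week knockout and 9225 in 10-week knockout. Summed fibroblast markers (7 of 7) were 11260, 6228 and 10510, with Lum and Thy1 below the floor on all 3. Summed meiotic and later germ cell markers (12 of 12) were 28985, 26439 and 5122. Summed Leydig cell markers (4 of 7) were 2159, 3319 and 5541, and 3 of 4 were at least 2-fold higher at 10 weeks than in wild type. Summed peritubular and smooth muscle markers (8 of 8) were 9987, 13765 and 16953. In 4-week knockout against wild type 5 of these 8 were above 0 and 3 below, with a median log2 ratio of 0.10. Endothelial markers summed to 1382, 1307 and 1741, with 4, 3 and 3 of 9 below the floor. The part of these cells and of the 18S signal in the member readings was not tested.

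**Figure D3:**
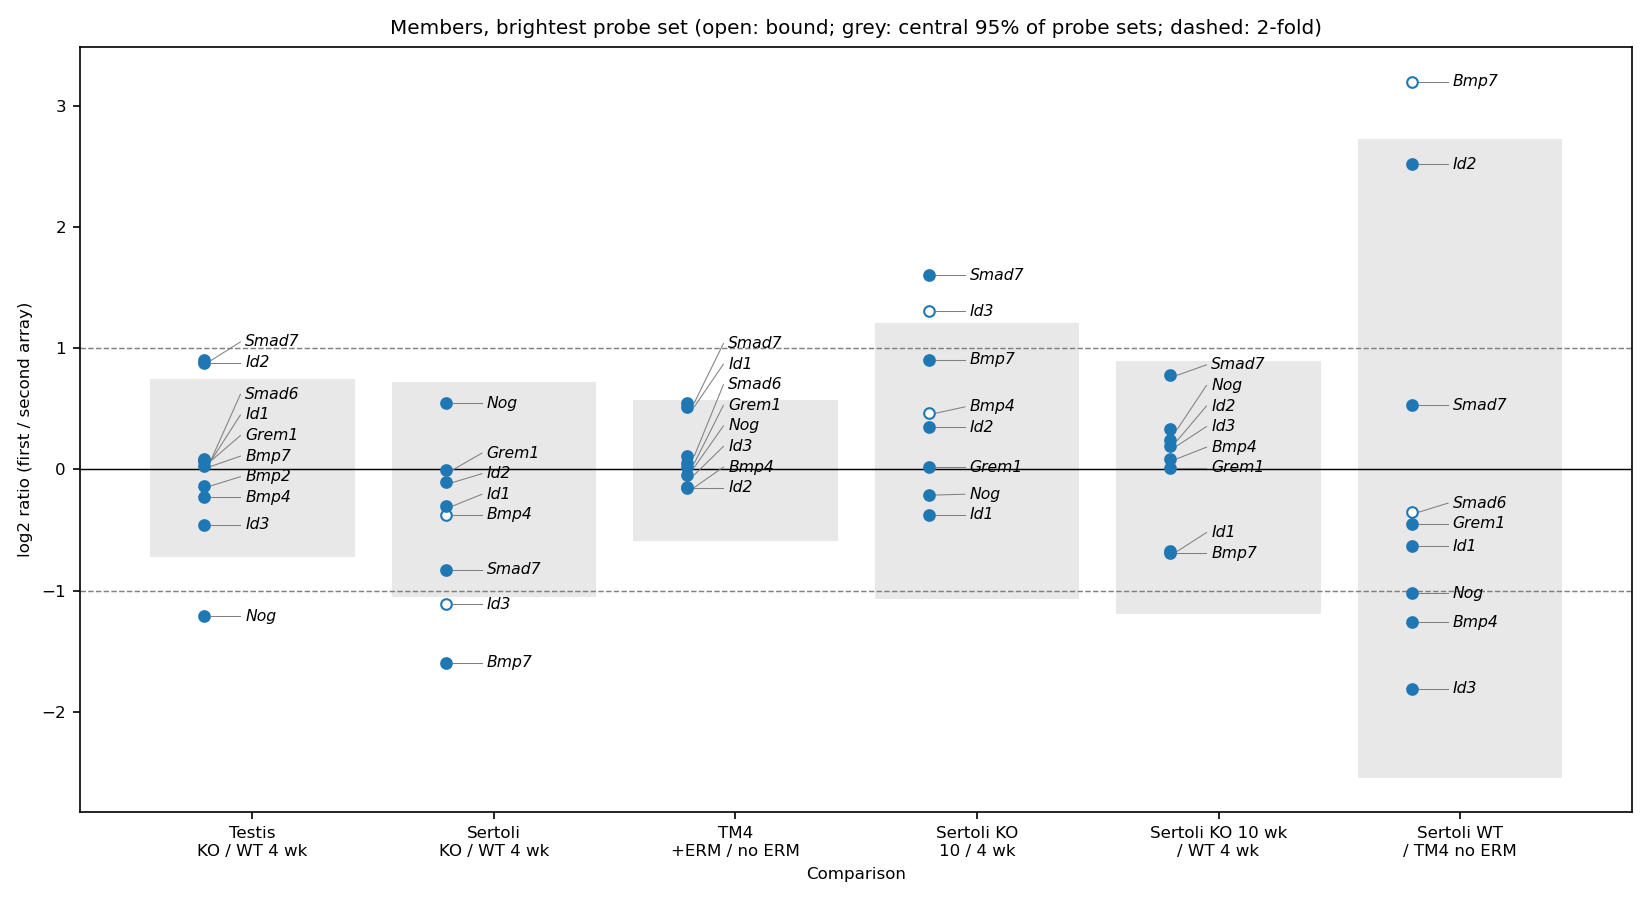
Log2 ratio of each member by its brightest probe set in 6 comparisons (WT, wild type; KO, ERM knockout), where open circles are bounds, the grey boxes span the central 95% of tested probe sets and dashed lines mark 2-fold. Nog lies below the box in testis (-1.21), Bmp7 (-1.60) and Id3 (a bound) below it in 4-week Sertoli cells, and no member is past 2-fold in TM4.

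Among the other pathway genes, Fstl1 was lower on the 4-week knockout array than on the other Sertoli arrays. Fstl1, a secreted follistatin-like glycoprotein, read 2149 in wild type, 315 in 4-week knockout and 2133 in 10-week knockout on 1448259_at. It was 6.83-fold lower at 4 weeks and 6.77-fold higher at 10 than at 4 weeks. On 1416221_at it was 6.57-fold lower at 4 weeks, so both probe sets pointed the same way. In TM4 the brightest probe set read 1960 and 2022.

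Of 53 tested genes in the 5 BMP lists, 2 were at least 2-fold lower in 4-week knockout Sertoli cells, Fstl1 and the dim chordin-like gene Chrdl1, and none was higher. That count lies near the background of 3.18% lower over all genes. The median log2 ratio was 0.019, with 29 above 0 and 24 below. Chrdl1 read 318 in wild type and 126 in knockout. Receptors and co-receptors had a median of 0.019 with none of 11 past 2-fold. Smad1, named after its values were seen, was lower in 4-week knockout on all 3 probe sets, at 766 against 447 on the brightest, 479 against 292 and 293 against 216. None of these was past 2-fold. Smad5 read 652 and 648 on its brightest probe set, while its other two had log2 ratios of -0.35 and -0.72.

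Between the knockout ages 3 of 53 were at least 2-fold higher and 1 lower at 10 weeks, with a median of 0.054. Over all genes 4.19% were higher, 3.51% lower and 7.7% either, so the count in either direction lies near the background. Bmper, a secreted BMP-binding protein, read 628 in wild type, 391 in 4-week knockout and 1577 in 10-week knockout. It was 4.04-fold higher at 10 than at 4 weeks and 2.51-fold higher than in wild type, the 1 gene of 51 past 2-fold in that pairing. Over all genes 5.85% were past 2-fold in the same pairing. The type I receptor Bmpr1b was 2.12-fold higher (563 against 265), with 0.34 on the log2 scale on another probe set. Id4, the remaining Id family gene, was 2.53-fold lower (1819 against 4598), and its other two probe sets had log2 ratios of -1.53 and -0.95. Id4 is also a marker of early spermatogonia. That marker list, which holds Id4, summed to 10438 at 4 weeks and 4019 at 10 weeks, so its sum includes the Id4 fall. Of 11 genes tested in the list 5 were above 0 and 6 below, with a median log2 ratio of -0.037.

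**Figure D4:**
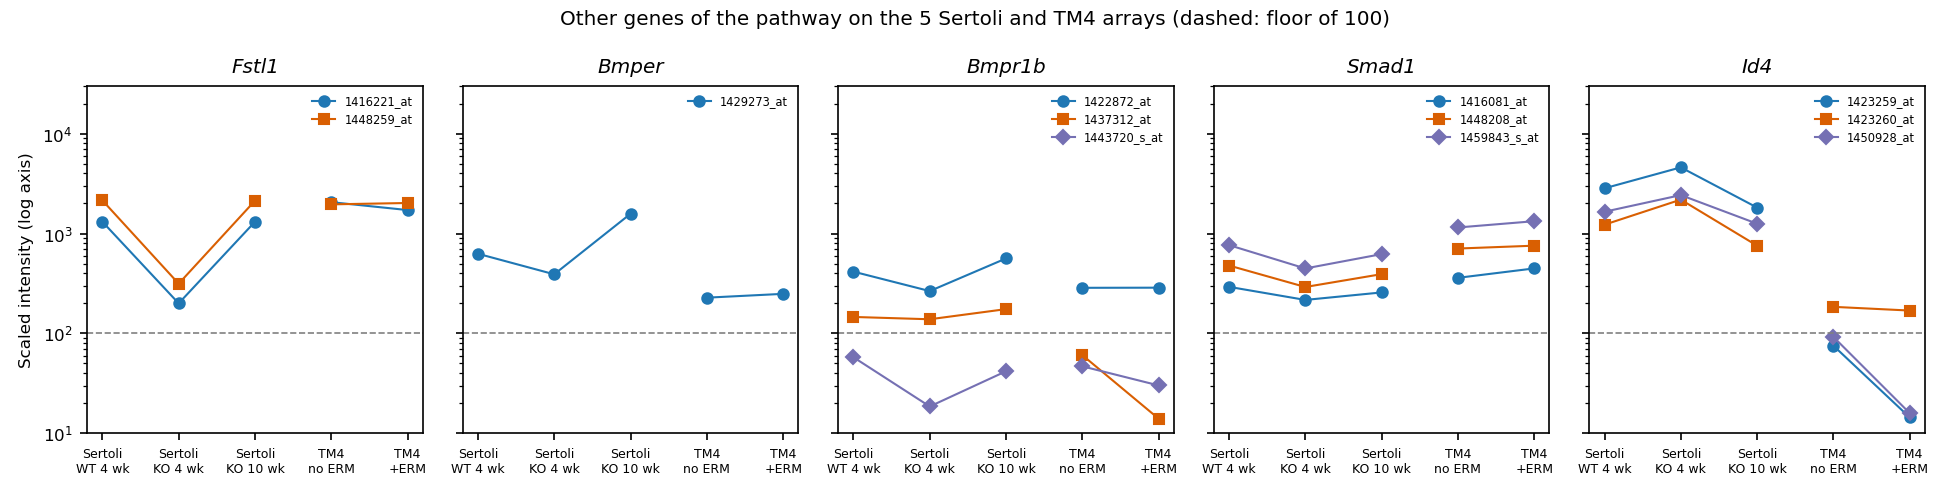
Scaled intensity (log axis) of 5 other pathway genes on the 3 Sertoli and 2 TM4 arrays, 1 array each, with a marker per probe set and the floor of 100 dashed. Fstl1 drops on the 4-week knockout array on both probe sets (2149 to 315 on the brightest), Bmper is highest at 10 weeks (1577), and Id4 is high in Sertoli cells and low in TM4.

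Genes that respond to TGF-beta, the related pathway that Smad7 also restrains, had a median log2 ratio of -0.39 in 4-week knockout over 10 tested, 1 of them past 2-fold. That gene was Ccn2, a matricellular protein, which read 3020 in wild type, 856 in 4-week knockout and 3956 in 10-week knockout. Between the ages 2 were at least 2-fold higher, Ccn2 (4.62-fold) and Ccn1 (2.62-fold), and 1 lower, the Smad corepressor Ski (2.25-fold, -0.33 on the log2 scale on another probe set). Against wild type, the 10-week array had none of 10 higher and 2 lower, Ski and Tgfbi. The E proteins that Id factors bind had a 4-week median of -0.068 over 3 genes, led by Tcf12 at 873 against 1460.

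**Figure D5:**
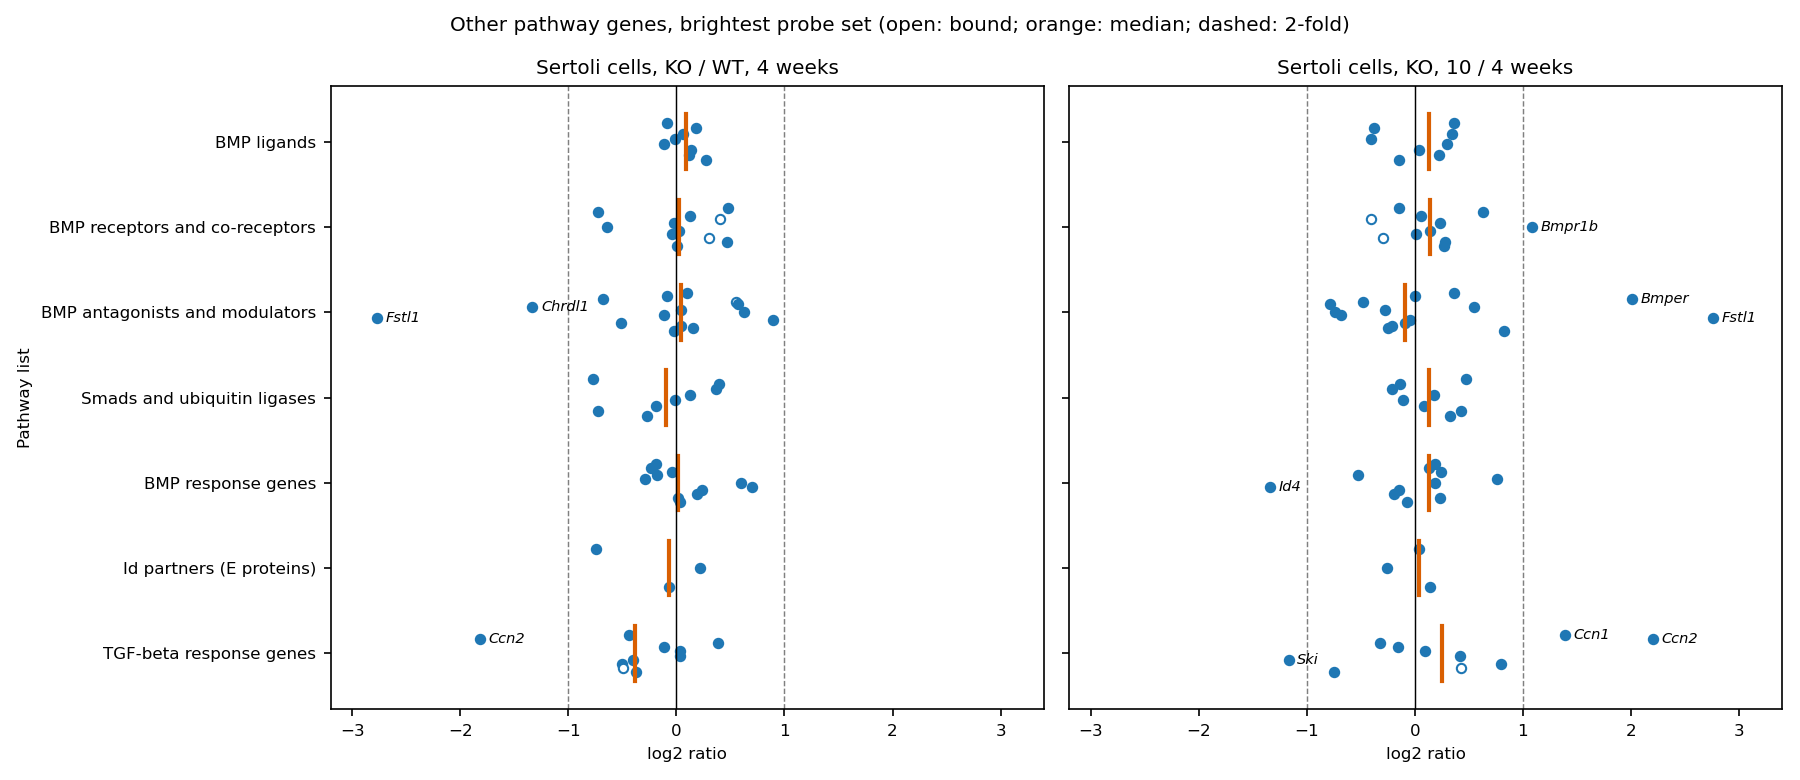
Log2 ratios of the other pathway genes by list in Sertoli cells, knockout (KO) over wild type (WT) at 4 weeks on the left and knockout at 10 over 4 weeks on the right, with 1 point per gene by its brightest probe set, open points for bounds, orange bars for list medians and dashed lines at 2-fold. Most genes lie within 2-fold, and Fstl1 is at -2.77 on the left and 2.76 on the right.

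The TM4 arrays did not show the transfected gene clearly: Etv5 read 405 without and 473 with ERM on 1428142_at, 187 and 211 on 1420998_at, and 314 and 475 on 1450082_s_at, all within 2-fold. Whether these probe sets detect the transfected construct is not stated, so the label was not checked by the data. Between the TM4 array labelled with ERM and that labelled without, none of the 8 members tested was past 2-fold, beside 0.303% of 16158 genes higher, 0.421% lower and 0.724% either. Id1 showed the clearest difference of the single-probe-set members, at 849 without and 1217 with ERM, 1.43-fold higher (log2 ratio 0.52). Of tested probe sets 3.32% lay as far up. Smad7 on 1443771_x_at read 570 and 836 (log2 ratio 0.55), while 1423389_at read 264 and 285 (0.11). Id3 was level at 757 and 735, Nog at 336 and 340 and Grem1 at 492 and 510.

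Id2 was dim in TM4 and its probe sets disagreed. With ERM, 1422537_a_at was lower at 133 against 207 (log2 ratio -0.64), 1435176_a_at was at 317 against 351 (-0.15), and 1453596_at was higher at 381 against 267 (0.51). Bmp4 read 311 without and 281 with ERM. Smad6 read 128 and 138. Bmp2 and the brightest Bmp7 probe set were below the floor on both TM4 arrays. None of 53 other genes of the BMP lists was past 2-fold, and the median was 0.005. Fst, which binds activins and some BMPs, was 1.75-fold higher with ERM (1168 against 669).

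Between primary Sertoli cells and the line, Id3 was lower in Sertoli cells and Id2 higher on 2 of 3 probe sets. Id2 on 1435176_a_at read 1872 to 2382 on the 3 Sertoli arrays and 317 to 351 on the TM4 arrays. It was 5.74-fold higher in wild-type Sertoli cells than in untransfected TM4. On 1422537_a_at the same ratio was 5.37-fold, whereas 1453596_at went the other way, at least 2.67-fold lower. Id3 read 86.4 to 248 in Sertoli cells and 735 to 757 in TM4, and was 3.51-fold lower in wild-type Sertoli cells. Id4 was at least 28.4-fold higher in wild-type Sertoli cells on its brightest probe set (2838 against 75.4). Its other probe sets were 6.65-fold higher on 1423260_at and at least 16.5-fold higher on 1450928_at.

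Id1 read 343 to 547 in Sertoli cells and 849 to 1217 in TM4. Its wild-type to untransfected log2 ratio was -0.63 after scaling and 0.069 on the values as deposited, since the TM4 arrays have trimmed means of 183 and 186 and the Sertoli arrays of 288 to 299. The directions of Grem1, of Smad6, of Smad7 on 1423389_at and of Bmp7 on 1435479_at also turned between these scalings. Id3 (-1.81 scaled, -1.11 as deposited), Id2 (2.52 and 3.22) and Bmp7 on 1432410_a_at (bounds of 3.20 and 3.51) had the same direction under both.

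Bmp4 was 2.40-fold lower (130 against 311) and Nog 2.03-fold lower (165 against 336) in wild-type Sertoli cells than in untransfected TM4 after scaling. As deposited their log2 ratios were -0.56 and -0.32, within 2-fold, while Smad7 on 1443771_x_at was at 1.23 instead of 0.53. Of 9 members tested 5 were past 2-fold, 2 higher and 3 lower, beside 17.8% of 16916 genes higher, 16.1% lower and 33.9% either. Over all genes 3011 were higher and 2718 lower after scaling, and 5723 and 1292 as deposited, with a median log2 ratio of -0.075 and 0.59.

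Among the other pathway genes 12 of 54 were at least 2-fold higher and 5 lower in wild-type Sertoli cells than in untransfected TM4 after scaling. Over all genes 17.8% were higher, 16.1% lower and 33.9% either, so the count in either direction lies near the background. The receptors Bmpr2 (2.76-fold) and Acvr1 (2.83-fold), the co-receptor Rgmb (2.17-fold, with other probe sets in both directions) and the ligand Bmp6 (6.18-fold) were higher. Fst (4.98-fold), Bmper (2.75-fold), Smad3 (2.63-fold, lower on another probe set), the ubiquitin ligase Smurf1 (2.58-fold) and the repressor Hes1 (2.14-fold) were higher too. The transcription factor Gata2 was 5.54-fold lower, Fstl3, an activin-binding relative of follistatin, 2.62-fold lower, and the ligand Bmp5 2.01-fold lower. The other Bmp5 probe sets were at least 14.8-fold lower and 1.63-fold lower. As deposited the median log2 ratio over all genes was 0.59 in place of -0.075. Lower folds near 2, such as those of Fstl3 and of the brightest Bmp5 probe set, therefore depend on the scaling. Of 10 TGF-beta response genes 6 were lower and 1 higher, led by fibronectin, Fn1 (224 against 10450), and the collagen gene Col1a1 (349 against 5974). Cell type markers also differed between these arrays. Fibroblast markers summed to 11260 in wild-type Sertoli cells and 25196 in untransfected TM4. Of 6 tested 3 were at least 2-fold lower in Sertoli cells, the collagen genes Col1a2, Col3a1 and Col1a1, the last also counted above. Dcn (6207 against 853) and Pdgfra (2740 against 760) went the other way, at least 2-fold higher. Peritubular markers summed to 9987 and 17263. Meiotic and later germ cell markers summed to 28985 and 3465, and macrophage markers to 13555 and 4515. Early germ cell markers, a list that holds Id4, summed to 11658 and 5456. Most of that list went the other way, with 8 of 12 tested below 0 and a median log2 ratio of -0.92. In it 6 were at least 2-fold lower and 4 at least 2-fold higher. The part of these cell types in the pathway values was not tested.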

How the data were processed

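The authors deposited intensity values per probe set, linear and never below 1, as a table of 45101 probe sets for 5 Sertoli and TM4 arrays and one of 12488 for 2 testis arrays. No label or header names their software or scaling. Arrays of a table were scaled to a common trimmed mean of 500, over non-control probe sets from the 2% to the 98% point, and log2 ratios were taken with a floor of 100. The probe set of highest mean stood for its gene. Levels were not compared between tables. Of the probe sets 34945 and 10833 named 1 gene, 932 and 396 several, and 9160 and 1193 none.

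No test was possible with 1 array per group, so counts past 2-fold are read beside those of all genes. The genes named by rule were the members, Etv5, listed pathway genes past 2-fold whose brighter reading was at least 500, and the nearest genes to Id1, Id2 and Id3 (those to Id3 are left out, since 1 of its readings was below the floor). Chrdl1, Smad1, Smad5, Tcf12, Ski between the knockout ages, Ltbp1 in testis and Fst in TM4 were named after their values were seen. Members and lists were chosen with earlier results of these data known. The steps were tested on simulated data. Alternatives were the deposited values, centring, quantile normalization, floors at 0.1 and 0.4 of the trimmed mean, averaged probe sets, and only probe sets whose ID has no suffix letter, since suffixes mark possible cross-hybridisation or shared transcripts. Python 3.11.15, numpy 2.4.6 and pandas 2.3.3 were used.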

Additional observations from a re-analysis of the deposited data

Results flagged for a closer look

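Nog differed in direction between the samples under the same contrast, knockout against wild type at 4 weeks. Its log2 ratio was -1.21 in whole testis and 0.55 in Sertoli cells, each from 1 pair of arrays of different designs. The Sertoli value was within 2-fold and was 0.27 with the floor raised to 0.4. Smad7 did so the other way, with 0.90 in testis and -0.83 in Sertoli cells on its brightest probe set, while its other Sertoli probe set was at 0.34 and the testis value was 0.20 with the floor at 0.4. Neither difference was tested, since each group had 1 array.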

How the results depend on the processing

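Nog in testis was past 2-fold under all 7 alternatives (-1.21 to -1.19), of which several leave a gene with 1 probe set as it was. Of 425 log2 ratios of members under the alternatives, 172 were identical to the reported value, many by construction, so the count of values that stayed close says little about stability. Leaving out probe sets of suffixed ID turned 2 called members between wild-type Sertoli cells and TM4: Id2 went from 2.52 to -1.42 and Bmp7 from 3.20 to -0.28, since another probe set then stood for each gene. The count of members past 2-fold in 4-week Sertoli cells and between the knockout ages was 1 in place of 2 with the floor at 0.4, with averaged probe sets and without probe sets of suffixed ID. Between wild-type Sertoli cells and TM4 it was 3 in place of 5 with the floor at 0.4, and 4 as deposited, centred, after quantile normalization, with averaged probe sets and without suffixed ones. Nog lost the call as deposited, centred, after quantile normalization and with the floor at 0.4, Bmp4 as deposited and with that floor, and Bmp7 with averaged probe sets (0.97) and without suffixed ones. The median of the 5 BMP lists, 0.019 in 4-week Sertoli cells, was -0.035 as deposited and 0.067 with averaged probe sets. Between the knockout ages it was 0.11 with the floor at 0.4 in place of 0.054. For the 10-week knockout against wild type it was 0.075, and 0.10 when centred, 0.048 and 0.13 with floors at 0.1 and 0.4, and 0.039 with averaged probe sets. Between wild-type Sertoli cells and TM4 it was -0.090, but 0.62 as deposited and 0.27 with the floor at 0.4. Averaging brought Bmp7 in 4-week Sertoli cells to -0.56. Signals near the floor limit Bmp2, Smad6, Bmp4 and Id3, among others. No paired analysis was possible because each group was 1 array.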

Other observations

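Among 9322 genes, those with provisional symbols not named, that reached the floor on all 5 Sertoli and TM4 arrays and 500 on at least 1, those nearest to Id1 and Id2 were found from log2 levels centred on their mean. The distance is the root mean square of the log2 differences over 5 arrays, and it was not tested. No genes are given for Id3, whose 4-week knockout reading lay below the floor. Nearest to Id2 were Kctd6 (0.039), Pkig, a protein kinase A inhibitor (0.058), and Cd74, the invariant chain of class II antigen presentation (0.080). On the wild-type, 4-week and 10-week knockout Sertoli arrays Kctd6 read 1056, 1018 and 1318, and it read 183 and 176 in TM4. Nearest to Id1 were Dph3 (0.080), the nuclear pore gene Nup85 (0.10) and Ss18l2 (0.10). Nup85 read 1375, 1079 and 884 in Sertoli cells and 2526 and 3243 in TM4.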
